A study of Mus musculus with 16 samples.

Results

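The genes described here are 9 genes of TGF-beta signalling: the ligands *Tgfb1* and *Tgfb3*, the receptors *Tgfbr1* and *Tgfbr2*, the signal transducers *Smad2* and *Smad3*, the inhibitor *Smad7*, the induced matrix gene *Tgfbi* and the activator *Thbs1*. They were chosen by name as members of the pathway, with earlier results of these data known. All 9 were found among the 24421 genes that the authors counted. Their levels were followed in CD11b+ myeloid cells of a mouse tumour, by how long the cells had been in the tumour.

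MC38-Ova cells, a murine colon adenocarcinoma line, were grown as subcutaneous tumours in C57BL/6 mice carrying the Kaede transgene, whose protein turns from green to red in violet light. Tumours were illuminated on day 13 and collected 24h or 72h later, so that Kaede-green cells had arrived after the light was given and Kaede-red cells were already there by then. CD11b+ cells that were alive, positive for CD45 and Kaede and negative for TER119 and NK1.1 were sorted by colour, and total RNA was sequenced in 4 libraries per group, 16 in all, with each tumour of a time from a different mouse. The mice were female and 8 to 14 weeks old, and the labels give 1 treatment, Control (NA), and 1 batch for all 4 groups (Kaede-green 24h, Kaede-red 24h, Kaede-green 72h and Kaede-red 72h).

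TGF-beta is secreted in a latent form that has to be activated outside the cell, for which thrombospondin 1, the product of *Thbs1*, is among the known activators. The active ligand binds the type II receptor, encoded by *Tgfbr2*, which recruits and phosphorylates the type I receptor, encoded by *Tgfbr1*, and this kinase in turn phosphorylates SMAD2 and SMAD3, which enter the nucleus with SMAD4 and control target genes. In tumours, macrophages both make the ligand and respond to it, and the pathway is known for restraining immune responses and for building extracellular matrix.

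The depth of the libraries differed between the colours, which bears on every value below. Total counts per library ranged from 3216858 to 15423085. *Rn45s*, the precursor of ribosomal RNA, took between 86.5% and 93.4% of the counts in Kaede-green and between 66.2% and 84.9% in Kaede-red libraries at 24h, and between 79.0% and 91.0% in Kaede-green and between 55.8% and 73.8% in Kaede-red libraries at 72h. The colours did not overlap in this share at either time. The counts left for other genes had a median of 691122.5 in Kaede-green and 1696387.5 in Kaede-red libraries, and the 9 genes together received between 1435 and 3145 counts in a Kaede-green library and between 2208 and 45558 in a Kaede-red one. Levels are therefore given as CPM, counts scaled to a common library size after TMM normalisation, in which no single gene such as *Rn45s* sets the scale.

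Per length, the 9 genes were led by the matrix target and the activator. *Thbs1* reached 91.8 ± 10.2 CPM per kilobase of exon (mean ± SD, n = 4) in Kaede-green cells at 24h, 42.9 ± 11.7 in Kaede-red cells at 24h, 68.6 ± 8.39 in Kaede-green cells at 72h and 69.1 ± 8.34 in Kaede-red cells at 72h. *Tgfbi* lay at 43.2 ± 8.92, 53.6 ± 17.8, 48.4 ± 9.01 and 124 ± 15.5 CPM per kilobase in the same order of groups. *Thbs1* was thus the most abundant of the 9 genes in both Kaede-green groups and *Tgfbi* in both Kaede-red groups, although the difference between these genes was within their spread in Kaede-red cells at 24h.

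*Tgfb1* and *Tgfbr1* came next in each of the 4 groups. The level of *Tgfb1* was 5.72 ± 2.35, 4.68 ± 1.28, 4.67 ± 1.51 and 9.78 ± 1.22 CPM per kilobase in Kaede-green 24h, Kaede-red 24h, Kaede-green 72h and Kaede-red 72h cells. *Tgfbr1* had 1.68 ± 0.618, 3.69 ± 0.528, 2.66 ± 0.565 and 3.70 ± 0.353 CPM per kilobase in the same order, and in Kaede-red cells at 24h it did not differ from *Tgfb1* beyond their spread, nor from *Smad7* in Kaede-green cells at 24h. The other 5 genes were low: mean levels lay between 0.586 and 2.38 CPM per kilobase for *Tgfbr2*, 0.758 and 1.35 for *Smad7*, 0.701 and 0.852 for *Smad2*, and 0.429 and 1.03 for *Smad3*. Apart from *Tgfbr2* in Kaede-red cells, these 4 genes did not differ beyond their spread from each other where they were neighbours in the order. *Tgfb3* was last in every group, with means between 0.211 and 0.602 CPM per kilobase, and in Kaede-red cells at 72h it lay below its neighbour *Smad2* beyond their spread.

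**Figure D1:**
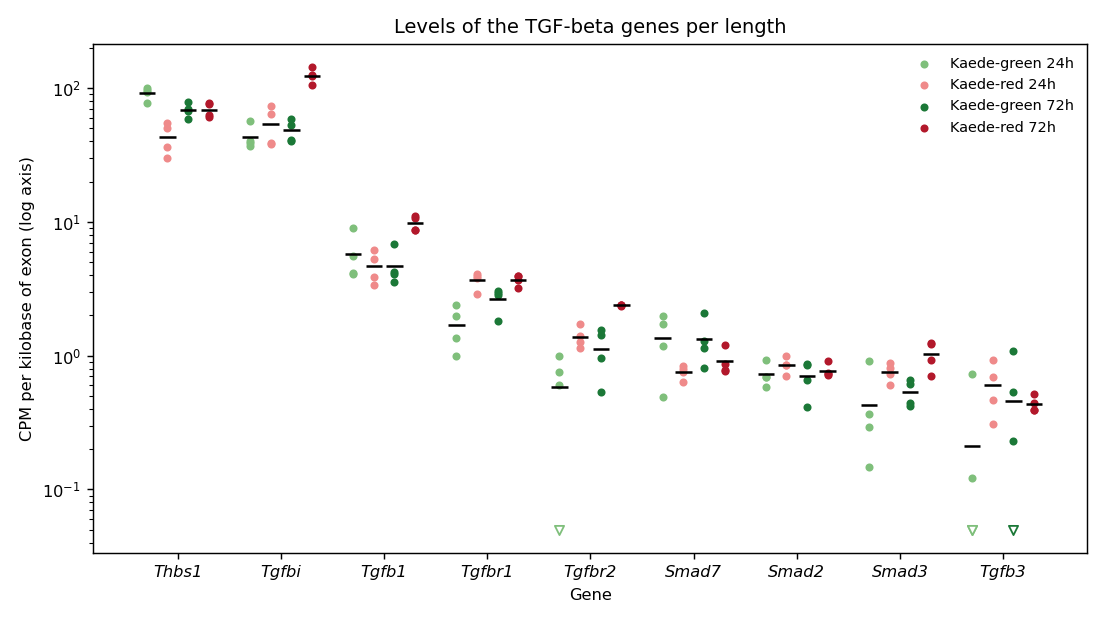
Level of each gene in CPM per kilobase of exon (log axis), by group. Points are libraries, short lines are means of 4 libraries, and open triangles at the foot of the axis mark libraries with a count of 0. *Thbs1* and *Tgfbi* stood above the other 7 genes in every library, and the mean of *Tgfbi* reached 124 CPM per kilobase in Kaede-red cells at 72h.

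Averaged over both times, Kaede-red cells carried more receptor, *Smad3* and *Tgfbi* transcript than newly arrived Kaede-green cells and less *Smad7* and *Thbs1*. Over both times, 6 of the 9 genes passed edgeR's quasi-likelihood test at an adjusted p under 0.05, against 20.2% of the 9642 genes tested. As the 9 genes were chosen with earlier results of these data known, this excess does not measure the pathway without bias. Higher in Kaede-red cells were 4 (*Tgfbr1*, *Tgfbr2*, *Tgfbi* and *Smad3*, of which *Smad3* entered the test through the Kaede-red libraries; 9.96% of all genes were called higher) and lower were 2 (*Smad7* and *Thbs1*; 10.3% of all genes were called lower). Taken singly, *Thbs1* was called at 24h but not at 72h (log2 fold change 0.01), and *Tgfbi* at 72h but not at 24h (0.31). The call of *Smad7* was lost in 10 of the 16 fits that left out 1 library. In these bulk samples, more cells that express a gene and more RNA of it per cell cannot be told apart.

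The times were also tested apart. At 24h, 2 genes were called, against 7.51% of all genes: *Tgfbr1* was higher in Kaede-red cells (3.20% of all genes were called higher) and *Thbs1* was lower (4.30% were called lower). In every Kaede-red library at 24h, *Tgfbr1* and *Tgfbr2* lay above all Kaede-green libraries, which held for 7.07% of all genes, and *Thbs1* lay below them, which held for 5.44%. At 72h, 3 genes were called, against 16.8% of all genes, each of them higher in Kaede-red cells (*Tgfb1*, *Tgfbr2* and *Tgfbi*; 8.07% were called higher). At that time 5 of the 9 genes (*Tgfb1*, *Tgfbr1*, *Tgfbr2*, *Tgfbi* and *Smad3*) lay above all Kaede-green libraries in every Kaede-red library, against 13.0% of all genes.

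**Figure D2:**
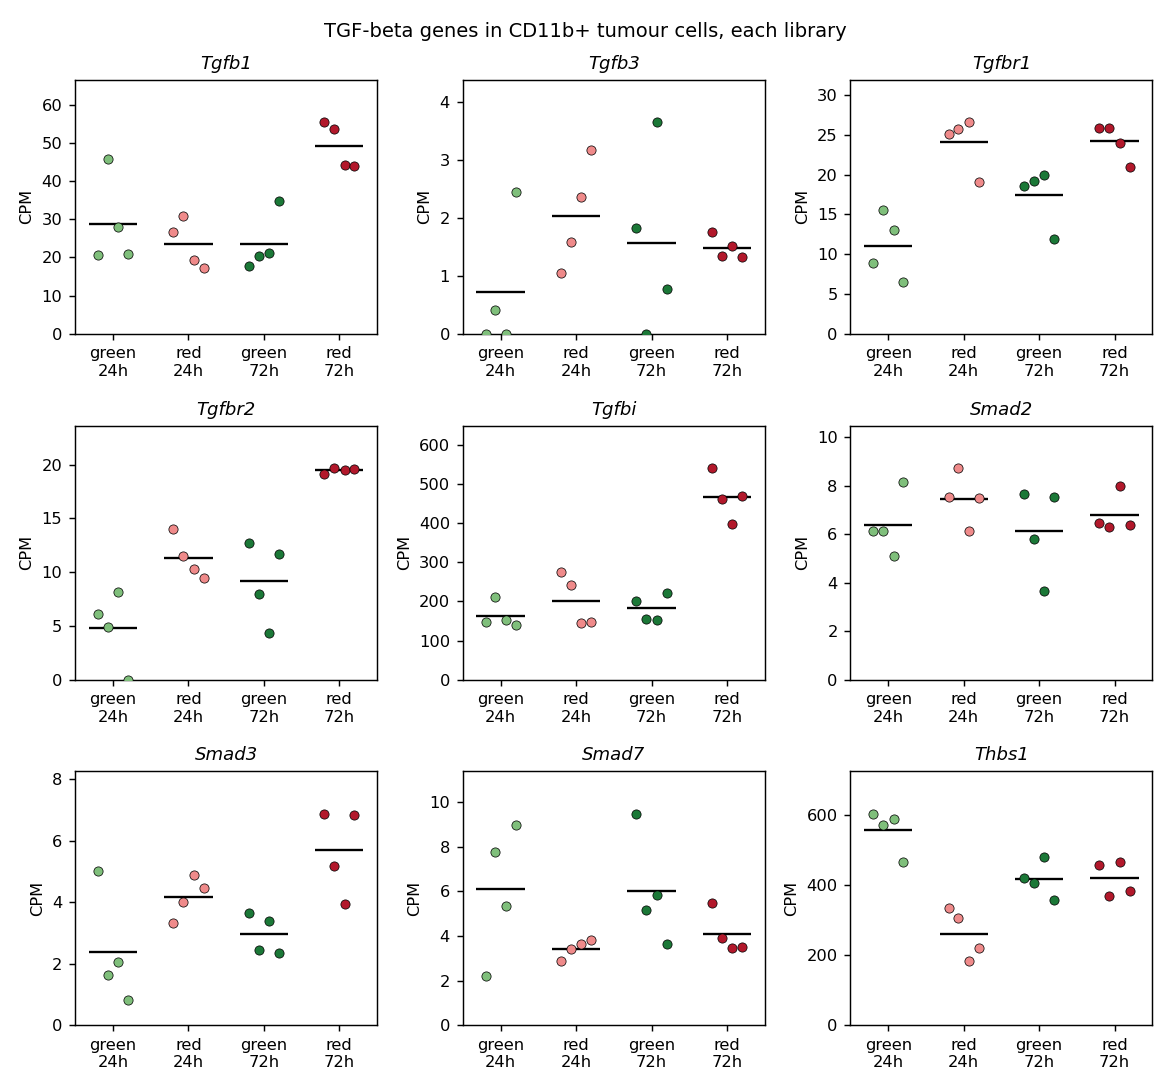
CPM of each gene in every library, by group. Points are libraries and lines are group means (n = 4); each panel has its own axis from 0. In Kaede-red cells at 72h, *Tgfbi* lay between 398 and 542 CPM, above all other libraries, and *Tgfb1* between 43.9 and 55.5 CPM, a range that Kaede-green 24h replicate 2 reached with 45.8 CPM.

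Genes that were higher in Kaede-red cells at 72h were *Tgfb1*, *Tgfbr2* and *Tgfbi*, so the bases before their starts are shown. RefSeq promoters (GRCm38.p6, the build of the counts) were matched by symbol for 5 of the 9 genes, and the stretches printed are those upstream bases that lie in no annotated exon, read 5′ to 3′ on the strand of the gene. They are chr7:25686752-25687001 on the plus strand for *Tgfb1*, chr9:116175364-116175613 on the minus strand for *Tgfbr2* and chr13:56609336-56609522 on the plus strand for *Tgfbi*. Capitals mark matches on either strand to CAGAC, the letters that SMAD proteins bind, GGGCGG, the GC box of Sp1, GAGGAA, the core bound by the myeloid factor PU.1, and TGANTCA, the AP-1 motif. No match overlapped another.
Tgfb1: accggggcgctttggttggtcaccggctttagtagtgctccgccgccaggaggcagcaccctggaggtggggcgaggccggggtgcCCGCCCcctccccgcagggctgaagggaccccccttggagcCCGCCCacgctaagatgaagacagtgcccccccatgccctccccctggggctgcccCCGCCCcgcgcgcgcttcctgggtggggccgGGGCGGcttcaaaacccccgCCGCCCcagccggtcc
Tgfbr2: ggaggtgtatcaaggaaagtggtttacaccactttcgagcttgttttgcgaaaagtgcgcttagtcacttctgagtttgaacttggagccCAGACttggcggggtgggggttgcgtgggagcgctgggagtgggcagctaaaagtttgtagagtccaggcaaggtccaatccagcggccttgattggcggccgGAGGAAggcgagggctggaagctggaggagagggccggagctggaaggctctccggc
Tgfbi: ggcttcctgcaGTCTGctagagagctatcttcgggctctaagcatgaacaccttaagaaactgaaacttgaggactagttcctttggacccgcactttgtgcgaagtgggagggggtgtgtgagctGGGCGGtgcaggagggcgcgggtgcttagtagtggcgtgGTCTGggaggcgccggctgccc
The *Tgfb1* stretch held 5 GC boxes and none of the other letters, *Tgfbr2* held 1 match to CAGAC and 1 to GAGGAA, and *Tgfbi* held 2 matches to CAGAC and 1 GC box. Among the 32851 RefSeq promoters, read over 250 upstream bases, 42.2% held CAGAC, 32.7% GGGCGG, 23.3% GAGGAA and 6.75% TGANTCA. A match describes the sequence, not a binding site.

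Among the ligands, *Tgfb1* (chr7:25687002-25705077), the main form in immune cells, separated the colours at 72h. Its values in the Kaede-green libraries were 20.6, 45.8, 28.1 and 20.8 CPM at 24h and 17.9, 20.4, 21.2 and 34.8 CPM at 72h (replicates 1 to 4). The Kaede-red libraries had 26.8, 31.0, 19.4 and 17.2 CPM at 24h and 55.5, 53.7, 44.2 and 43.9 CPM at 72h. The colours overlapped at 24h, whereas at 72h the lowest Kaede-red library was above the highest Kaede-green one, replicate 4. At 72h the difference was 2.09-fold (log2 fold change 1.06, SE 0.24, adjusted p = 0.00219 by edgeR's quasi-likelihood test, above the Kaede-green median in 4 of 4 libraries). At 24h it was -0.30 on the log2 scale (SE 0.25, adjusted p = 0.543, below the Kaede-green median in 2 of 4 libraries), and over both times 0.38 (SE 0.17, adjusted p = 0.119, 6 of 8 libraries above it). Leaving out 1 library, Kaede-green 24h replicate 2 or Kaede-green 72h replicate 4, brought the value over both times to 0.55 (adjusted p = 0.0181) or 0.52 (adjusted p = 0.0295), past the threshold in edgeR's test (adjusted p from 0.0181 to 0.246 over the 16 such fits). It was also called with no filter on low counts (0.50), with at least 10 counts in every library (0.46) and with scaling by counts outside *Rn45s*, and adjusted p ran from 6.24e-06 to 0.866 over 10 alternatives.

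*Tgfb3* (chr12:86056745-86079041), the ligand best known from development and wound repair, was close to the limit of detection. It received between 0 and 15 counts in a Kaede-green library, with a count of 0 in 3 of the 8, and between 10 and 63 counts in a Kaede-red library. In CPM the range was 0 to 3.65 in Kaede-green and 1.05 to 3.16 in Kaede-red cells, so the colours overlapped. It entered the test through the Kaede-red libraries, since 1 of 8 Kaede-green libraries passed the level that the filter required, 1.66 CPM computed without TMM. The gene overlaps *Ttll5* on the opposite strand, and since the strand setting of the counting is not given in the sources used here, counts of these genes cannot be told apart with certainty. Its log2 fold change was 1.57 (SE 0.83, adjusted p = 0.284, 4 of 4 libraries above the Kaede-green median) at 24h and -0.12 (SE 0.66, adjusted p = 0.930, 0 of 4 libraries below it) at 72h, and neither passed edgeR's test. Without Kaede-green 24h replicate 4, which held 6 of the 7 counts of its group, the value at 24h was 3.93 (adjusted p = 0.0359, with a range of 0.0359 to 0.569 over the 16 such fits), against a group left with 1 count.

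Both receptor chains were higher in Kaede-red cells. *Tgfbr1* (chr4:47353222-47414931), the type I receptor kinase, had 8.91, 15.5, 13.0 and 6.53 CPM in Kaede-green and 25.1, 25.7, 26.6 and 19.0 CPM in Kaede-red libraries at 24h. At 72h the values were 18.6, 19.2, 19.9 and 11.9 CPM in Kaede-green and 25.9, 25.9, 24.0 and 21.0 CPM in Kaede-red libraries. Kaede-red libraries thus stood at about the same level at both times and above every Kaede-green library of their time, while the Kaede-green level was lowest at 24h. The difference was 2.15-fold at 24h (log2 fold change 1.11, SE 0.24, adjusted p = 0.00286 by edgeR's test, 4 of 4 libraries) and 1.39-fold at 72h (0.48, SE 0.22, adjusted p = 0.140, 4 of 4 libraries). Over both times it was 0.79 (SE 0.16, adjusted p = 0.000534, 8 of 8 libraries above the Kaede-green median of their time).

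*Tgfbr2* (chr9:116084293-116175360), the receptor that binds the ligand first, had few counts in Kaede-green cells: 11, 12, 32 and 0 at 24h and 35, 26, 18 and 45 at 72h. Kaede-red libraries had 160, 95, 57 and 146 counts at 24h and 491, 783, 129 and 931 at 72h. After scaling, Kaede-green libraries lay at 6.13, 4.90, 8.17 and 0 CPM at 24h and at 12.8, 7.92, 4.38 and 11.7 CPM at 72h. The Kaede-red values were 14.0, 11.5, 10.3 and 9.41 CPM at 24h and 19.2, 19.7, 19.5 and 19.6 CPM at 72h, above all Kaede-green libraries of the same time. The Kaede-red libraries at 72h were the closest to each other, with an SD of 0.224 CPM. *Tgfbr2* differed 2.21-fold over both times (log2 fold change 1.14, SE 0.25, adjusted p = 0.00109 by edgeR's test, 8 of 8 libraries), by 1.18 at 24h (SE 0.38, adjusted p = 0.0521, 4 of 4 libraries) and by 1.11 at 72h (SE 0.33, adjusted p = 0.0180, 4 of 4 libraries). The value at 24h was called in 6 of 10 alternatives other than leaving out a library (adjusted p from 7.94e-05 to 0.431), DESeq2 and a replicate block among them, so its lack of a call at that time is not firm. The call at 72h was lost without Kaede-green 72h replicate 2 (1.02, adjusted p = 0.0657) or replicate 3 (0.84, adjusted p = 0.104), with adjusted p from 0.00150 to 0.104 over the 16 fits that left out 1 library.

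Among the SMADs, over both times *Smad3* was called higher in Kaede-red cells, against few counts in Kaede-green cells, *Smad7* was called lower and *Smad2* was not called. *Smad3* (chr9:63646767-63757994), which binds DNA once phosphorylated by the type I receptor, had 9, 4, 8 and 2 counts in Kaede-green libraries at 24h and 10, 8, 14 and 9 at 72h. In Kaede-red libraries it had 38, 33, 27 and 69 counts at 24h and 176, 205, 26 and 325 at 72h. At 24h these were 5.01, 1.64, 2.04 and 0.816 CPM in Kaede-green and 3.33, 4.01, 4.89 and 4.45 CPM in Kaede-red libraries, and at 72h 3.64, 2.44, 3.40 and 2.33 CPM against 6.87, 5.16, 3.92 and 6.83 CPM. Kaede-green 24h replicate 1 was above all Kaede-red libraries of its time and the other 3 below them, and at 72h the colours did not overlap. *Smad3* was 1.92-fold higher in Kaede-red cells over both times (log2 fold change 0.94, SE 0.27, adjusted p = 0.0120 by edgeR's test, 8 of 8 libraries), with values of 0.90 (SE 0.41, adjusted p = 0.199) at 24h and 0.98 (SE 0.35, adjusted p = 0.0525) at 72h, each in 4 of 4 libraries. At 72h it was called in 4 of 10 alternatives other than leaving out a library, DESeq2 among them, and in 4 of the 16 fits without 1 library (adjusted p from 0.0317 to 0.145), so that lack of a call is not firm either. It too entered the test through Kaede-red cells, as 3 of 8 Kaede-green libraries passed the filter's level, which is set without TMM.

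*Smad2* (chr18:76241580-76310963) is the partner of SMAD3 in the same step. It ranged from 3.65 to 8.16 CPM in Kaede-green and from 6.16 to 8.74 CPM in Kaede-red libraries, so the colours overlapped. Its log2 fold change over both times was 0.20 (95% interval -0.20 to 0.59, adjusted p = 0.518 in edgeR's test, 5 of 8 libraries above the Kaede-green median), an interval that holds values of up to 0.59.

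*Smad7* (chr18:75367529-75395935), which blocks the type I receptor and is itself induced by TGF-beta, was at low counts in both colours. Kaede-green libraries had 2.23, 7.77, 5.36 and 8.98 CPM at 24h and 9.47, 5.18, 5.83 and 3.63 CPM at 72h. Kaede-red libraries had 2.89, 3.40, 3.62 and 3.80 CPM at 24h and 5.47, 3.90, 3.47 and 3.53 CPM at 72h, from between 20 and 168 counts. The Kaede-red values were close together and the Kaede-green values spread around them, with the lowest value of all in Kaede-green 24h replicate 1, so the colours overlapped at both times. Over both times the level of *Smad7* fell by 0.69 on the log2 scale (SE 0.24, adjusted p = 0.0402 by edgeR's test, 8 of 8 Kaede-red libraries below the Kaede-green median of their time), and neither time alone passed (-0.85, SE 0.35, adjusted p = 0.150 at 24h and -0.52, SE 0.33, adjusted p = 0.297 at 72h). This call was close to the threshold: it was lost in 10 of the 16 fits that left out 1 library, namely Kaede-green 24h replicate 2 or 4, Kaede-red 24h replicate 1, 2 or 3, Kaede-green 72h replicate 1 or 3, or Kaede-red 72h replicate 2, 3 or 4, with adjusted p between 0.0119 and 0.112 over all 16 fits. It was also lost with a replicate block (-0.64) and with no filter on low counts (-0.57), with adjusted p from 0.0193 to 0.884 over the 9 other alternatives that tested it.

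*Tgfbi* (chr13:56609523-56639562), whose product is a matrix protein named for its induction by TGF-beta, was the clearest of the 9 genes at 72h. Kaede-green libraries had 146.5, 213, 153 and 139 CPM at 24h and 200.0, 156, 153 and 222 CPM at 72h. Kaede-red libraries had 276, 242, 144 and 147 CPM at 24h and 542, 462, 398 and 470.4 CPM at 72h. At 24h replicates 1 and 2 of the Kaede-red group were above every Kaede-green library and replicates 3 and 4 were among them. Replicates 1 and 2 also had less *Rn45s* (66.2% and 68.2%, against 83.1% and 84.9% in replicates 3 and 4), lower sums of fibroblast markers (20.7 and 21.3 CPM against 38.4 and 39.5 CPM) and lower sums of erythroid markers (1.93 and 2.31 CPM against 11.0 and 9.93 CPM), and what split this group was not tested. At 72h all 4 Kaede-red libraries were above all the others. *Tgfbi* was 2.56-fold higher in Kaede-red cells at 72h (log2 fold change 1.36, SE 0.23, adjusted p = 6.57e-05 by edgeR's test, 4 of 4 libraries), and its value at 24h was 0.31 (SE 0.22, adjusted p = 0.465, 2 of 4 libraries). Over both times it differed by 0.84 (SE 0.16, adjusted p = 0.000216, 6 of 8 libraries).

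*Thbs1* (chr2:118111876-118127133), the activator, separated the colours at 24h, with less in Kaede-red cells. Kaede-green libraries had 604, 570.5, 588 and 467 CPM at 24h and 421, 407, 481 and 357 CPM at 72h. Kaede-red libraries had 334, 307, 182 and 219.7 CPM at 24h and 459, 368, 467 and 384 CPM at 72h. At 24h no Kaede-red library reached the lowest Kaede-green value, and at 72h the colours overlapped. *Thbs1* fell by 1.10 on the log2 scale at 24h (SE 0.22, adjusted p = 0.00104 by edgeR's test, 4 of 4 libraries). It stood at 0.01 at 72h (95% interval -0.42 to 0.44, adjusted p = 0.986, 2 of 4 libraries above the Kaede-green median). Over both times the value was -0.54 (SE 0.15, adjusted p = 0.00923, 6 of 8 libraries below the median), a call that was lost with no filter on low counts (-0.43, with adjusted p from 7.48e-05 to 0.195 over 10 alternatives). Scaled by counts outside *Rn45s*, *Thbs1* was at -0.19 at 24h and not called. That scaling lifted the median of all genes at 24h from 0.05 to 0.93. Relative to this median *Thbs1* stood at -1.12, against -1.15 in the main fit.

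Between 24h and 72h, *Tgfb1*, *Tgfbi* and *Thbs1* rose in Kaede-red cells. These 3 of the 9 genes were called, against 8.67% of all genes, and each was higher at 72h (4.91% of all genes were called higher). With *Tgfbr2*, they were the 4 genes for which every Kaede-red library at 72h lay above every Kaede-red library at 24h, which held for 11.8% of all genes. *Tgfbi* rose 2.32-fold (log2 fold change 1.21, SE 0.23, adjusted p = 0.00153 by edgeR's test), *Tgfb1* 2.10-fold (1.07, SE 0.24, adjusted p = 0.00484) and *Thbs1* 1.61-fold (0.69, SE 0.21, adjusted p = 0.0405), each in 4 of 4 libraries. *Tgfbr2*, with a log2 fold change of 0.78 (SE 0.30, adjusted p = 0.107, 4 of 4 libraries), did not pass, and *Tgfbr1* had 0.01 (SE 0.21, adjusted p = 0.985, 2 of 4 libraries). At 24h, Kaede-red replicates 3 and 4, the libraries with more *Rn45s* and more fibroblast and erythroid marker RNA, had the lowest values of all 3 genes. The call of *Thbs1* was lost in 10 of the 16 fits without 1 library (Kaede-green 24h replicate 1 or 3, Kaede-red 24h replicate 3 or 4, Kaede-green 72h replicate 1 or 2, or any Kaede-red 72h replicate), with adjusted p between 0.0209 and 0.167, and in 5 of 10 other alternatives, RLE factors, upper quartile factors and thinning of the Kaede-red libraries among them (adjusted p from 0.00434 to 0.161).

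In Kaede-green cells, which at 72h included cells that had arrived over a longer time, none of the 9 genes was called between 24h and 72h. At a share of 0% of all genes called by edgeR's test, this says little of the 9 genes: 2 of them, *Tgfbr1* and *Tgfbr2*, had an unadjusted p under 0.05, as did 835 of the 9642 genes (8.66%), and DESeq2 called 0 of the 9 and 12 genes in all. The receptors had the log2 fold changes 0.64 (SE 0.25, adjusted p = 0.464, 4 of 4 libraries above the 24h median) and 0.86 (SE 0.41, adjusted p = 0.559, 3 of 4 libraries). *Thbs1*, which rose with time in Kaede-red cells, had -0.42 (SE 0.21, adjusted p = 0.602, 4 of 4 libraries below the 24h median) in Kaede-green cells.

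Whether the difference between the colours itself changed with time was tested as an interaction. None of the 9 genes passed edgeR's test in the main fit, against 0.767% of all genes. With a replicate block (1.70% of all genes called) or no filter on low counts (1.03%), *Tgfb1*, *Tgfbi* and *Thbs1* passed. The values nearest to the threshold were those of *Tgfb1* (1.36, SE 0.35, adjusted p = 0.0560), *Thbs1* (1.11, SE 0.30, adjusted p = 0.0673) and *Tgfbi* (1.05, SE 0.32, adjusted p = 0.0920), in log2 units, and the same 3 genes had an unadjusted p under 0.05 (15.3% of all genes had one) and were called by DESeq2 (which called 5.18% of all genes). For the receptors the interaction was -0.63 (SE 0.33, adjusted p = 0.361) for *Tgfbr1* and -0.08 (SE 0.50, adjusted p = 0.961) for *Tgfbr2*, so the call of *Tgfbr1* at 24h and of *Tgfbr2* at 72h does not show that these receptors differ in timing. *Smad3* (0.08, SE 0.56, adjusted p = 0.965) and *Smad7* (0.33, SE 0.48, adjusted p = 0.804) did not pass either.

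**Figure D3:**
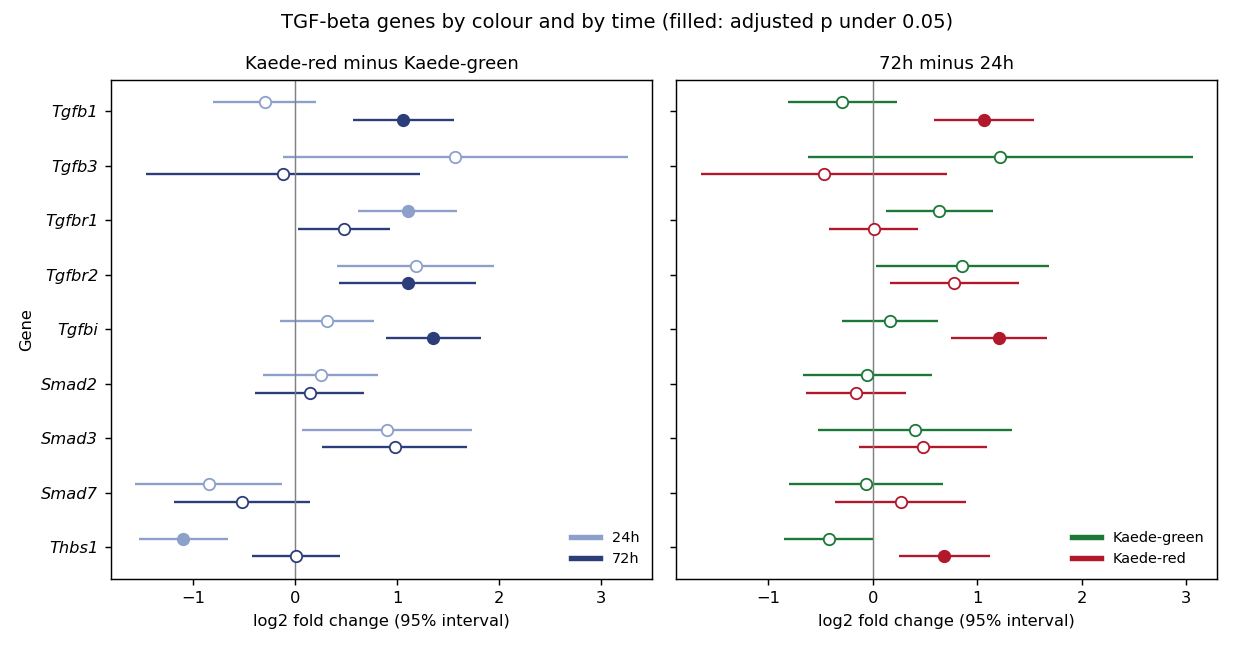
Log2 fold change of each gene with its 95% interval, Kaede-red minus Kaede-green at 24h and at 72h (left) and 72h minus 24h in each colour (right). Filled points passed edgeR's quasi-likelihood test at an adjusted p under 0.05 and open points did not; at 72h *Tgfb1* (1.06), *Tgfbr2* (1.11) and *Tgfbi* (1.36) passed between the colours.

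Because the share of *Rn45s* moved with the colour, its part in these differences cannot be told apart from that of the colour by the groups alone. In a fit with the share as a covariate, the calls at 24h were kept, with log2 fold changes of 1.13 for *Tgfbr1* and -1.30 for *Thbs1*, against 2.14% of all genes called by edgeR's test. Over both times that fit called 0 of the 9 genes (3 had an unadjusted p under 0.05, and 1.62% of all genes were called), with 0.82 for *Tgfbr1*, 0.79 for *Tgfbr2*, 0.98 for *Smad3*, 0.19 for *Tgfbi*, -0.77 for *Thbs1* and -0.31 for *Smad7*. At 72h it also called 0 (1 had an unadjusted p under 0.05, and 1.06% of all genes were called), with 0.41 for *Tgfb1*, 0.72 for *Tgfbr2* and 0.65 for *Tgfbi*. At 72h the values of *Tgfbi* and *Tgfb1* were thus closer to 0 than without the covariate, whereas at 24h that of *Tgfb1*, not called, was further from it (-0.84). Between the times in Kaede-red cells *Tgfbi* was still called at 0.95 and *Tgfb1* (0.81) and *Thbs1* (0.60) were not.

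Scaling by the counts outside *Rn45s*, without TMM, moved the median log2 fold change of all genes over both times from 0.06 to 0.82. Relative to that median the 9 genes ran from *Tgfbr2* at 1.11 to *Thbs1* at -0.60 and *Smad7* at -0.76, while without that reference the last 2 turned to 0.22 and 0.07. Since this scaling moves all genes by nearly the same amount, it cannot test their order.

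Beyond the 9 genes, 85 genes of the pathway were listed, also with earlier results known, and 54 of them had enough counts to be tested. Over both times 6 of these were higher and 4 lower in Kaede-red cells, beside 20.2% of all genes called, with a median log2 fold change of 0.01, beside 0.06 over all genes and 0.73 over the 9 genes. The list of latency and activation genes had 2 of 7 higher: *Mmp14*, a membrane protease that can release active TGF-beta (0.91, SE 0.17), and *Furin*, the protease that cleaves the TGF-beta precursor (0.72, SE 0.18). Among other SMADs and SMAD regulators 1 of 15 was higher, *Ski*, a repressor of SMAD-driven transcription (1.27, SE 0.23), and in the branch that works without SMADs 1 of 7, *Tab2*, an adaptor of the kinase TAK1 (0.97, SE 0.18). None of 8 other receptors of the superfamily passed edgeR's test over both times, although *Eng*, a co-receptor known from endothelium, was higher at 72h (2.16, SE 0.50).

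Genes that respond to TGF-beta were called in both directions. Of 13 tested, *Id2*, an inhibitor of helix-loop-helix factors, was higher in Kaede-red cells over both times (log2 fold change 1.16, SE 0.18), and *Junb*, an AP-1 subunit (-0.45, SE 0.15), and the collagen genes *Col1a1* (-1.12, SE 0.20) and *Col3a1* (-1.13, SE 0.18) were lower. Among 4 tested ligands and antagonists of the wider superfamily, *Gdf3*, a ligand of the family, was higher (1.22, SE 0.38) and *Fstl1*, a secreted follistatin-like protein, was lower (-1.10, SE 0.23). At 24h 3 of the 54 genes passed, against 7.51% of all genes, *Ski* (1.25) and *Id2* (1.57) higher and *Junb* (-0.81) lower. This number ranged from 1 to 4 in the 16 fits without 1 library, which called 5.02% to 7.81% of all genes. It was 7 with DESeq2, which called 7.98% of all genes. *Junb* was lost in 2 of those 16 fits at 24h and in 7 over both times, and *Ski* at 24h in 3. At 72h 7 were higher and 3 lower, against 16.8% of all genes, with *Eng* highest and *Fstl1* lowest (-2.04, SE 0.32). Fits of these lists with the *Rn45s* share as a covariate were added after seeing the data. Over both times they called 1 of the 54 (*Id2*), against 1.62% of all genes. At 24h they called 1, against 2.14% of all genes, and at 72h 0, against 1.06%. Some values were no smaller than before (*Junb* -0.62 over both times and -0.96 at 24h, *Id2* 1.11 at 72h).

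Over time in Kaede-red cells, 6 of the 54 genes were higher at 72h and 3 lower, against 8.67% of all genes. *Fn1*, the gene of fibronectin (log2 fold change 0.89, SE 0.18), *Nedd9*, a scaffold of cell adhesion (1.20, SE 0.34), *Mmp14* (1.02, SE 0.22), *Furin* (0.79, SE 0.24), *Eng* (1.24, SE 0.40) and *Tab2* (0.76, SE 0.22) rose beside *Tgfb1*, *Tgfbi* and *Thbs1*. *Fstl1* (-1.27, SE 0.31), *Col3a1* (-1.12, SE 0.25) and *Id2* (-0.76, SE 0.22) fell. The number of the 54 genes called was from 3 to 11 in the 16 fits without 1 library, in which 2.91% to 11.3% of all genes were called. With the covariate it was 1, against 1.14% of all genes. *Fn1*, *Mmp14* and *Col3a1* were called in each of the 16 fits, while *Eng* was lost in 7, *Furin* and *Id2* in 6, *Nedd9* and *Tab2* in 4 and *Fstl1* in 2. In Kaede-green cells edgeR's test called 0 of the 54, as it did for all genes. Of the 54, edgeR's test called 1 for a colour difference that changed with time, *Fstl1* (-1.87, SE 0.45, adjusted p = 0.0483), a call that was lost in 12 of the 16 fits without 1 library (adjusted p from 0.0123 to 0.140). The number called was from 0 to 2 in those fits, which called 0.0198% to 1.55% of all genes. It was from 0 to 4 in the other alternatives (0.353% to 5.22% of all genes), with 4 by DESeq2, which called 5.18% of all genes.

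**Figure D4:**
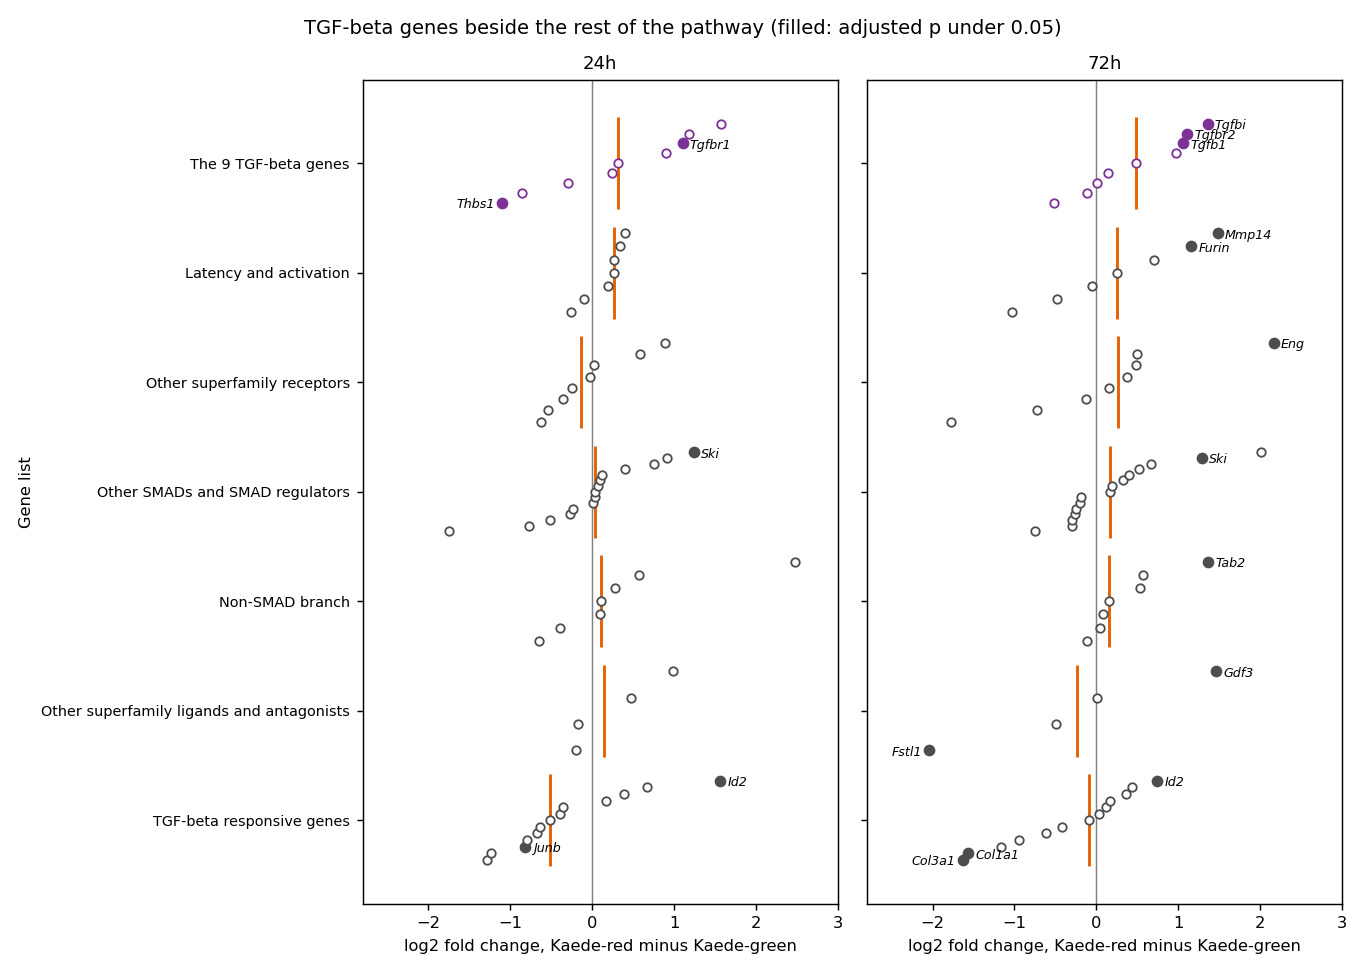
Log2 fold change, Kaede-red minus Kaede-green, of the 9 TGF-beta genes and of the tested genes of 6 lists of the pathway, at 24h and at 72h. Points are genes, filled where edgeR's test passed at an adjusted p under 0.05, and orange lines are list medians. At 72h 3 of the 9 genes and 10 of 54 listed genes passed, against 16.8% of all genes.

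Markers of other cells were read beside these values, although the sort for CD45 and against TER119 is meant to remove fibroblasts, endothelial and erythroid cells. All 8 markers of the sorted myeloid cells were detected in every group, and their summed level (median of 4 libraries) was 1852 CPM for Kaede-green against 898 CPM for Kaede-red at 24h and 1362 against 1318 CPM at 72h, led by *Lyz2*. Over both times 4 of the 8, *Adgre1* (log2 fold change 1.53), *Cd68* (1.14), *Csf1r* (0.95) and *Itgam* (0.44), were called higher in Kaede-red cells, like the receptors and *Tgfbi*, against 9.96% of all genes. *Lyz2* (-1.25) was called lower, against 10.3% of all genes, and *Ptprc*, *Fcgr3* and *Ccr2* were not called. Fibroblast markers, 8 of 9 detected in Kaede-green cells at 24h (*Lum* was at 0) and 9 of 9 in the other groups, summed to 47.5 against 29.8 CPM at 24h and to 53.7 against 18.7 CPM at 72h (Kaede-green first), led by *Col3a1*. Their sum was thus lowest in Kaede-red cells at 72h, where *Tgfb1* and *Tgfbi* were highest, and *Col1a1* and *Col3a1* are on this list as well. The part that the make-up of the sorted cells or fibroblast RNA had in the collagen values, or in those of the 9 genes, was not tested.

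Platelets carry much TGF-beta and thrombospondin, so their markers are given too. They summed to 3.42 against 23.8 CPM at 24h and to 2.31 against 10.7 CPM at 72h, again with Kaede-green first. This sum was nearly all *Pf4* (22.7 CPM in Kaede-red cells at 24h), which macrophages can also express, while *Gp9* was at 0 in all groups and *Treml1* in both groups at 24h (4 of 9 markers were detected in Kaede-green and 6 of 9 in Kaede-red cells at that time). *Thbs1* was lowest in the group in which this sum was highest. Over both times *Pf4* was called higher in Kaede-red cells (log2 fold change 2.72), like the receptors and *Tgfbi*. Endothelial markers, 5 of 7 detected in Kaede-green and 6 of 7 in Kaede-red cells at both times, summed to 15.2 against 22.2 CPM at 24h and to 13.9 against 32.7 CPM at 72h and were led by *Kdr*. Over both times *Kdr* (log2 fold change 1.06) and *Pecam1* (1.02) were called higher in Kaede-red cells, like the receptors, and *Cdh5* (-1.42) lower. *Tek* and *Emcn* were at 0 in Kaede-green cells at 24h, *Vwf* and *Emcn* in Kaede-green cells at 72h and *Cldn5* in Kaede-red cells at both times. The part of these cells in the TGF-beta genes was not tested.

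The remaining lists were low. Neutrophil markers summed to 11.3 against 11.6 CPM at 24h and to 11.4 against 21.1 CPM at 72h (Kaede-green first), led by *Csf3r* with *Retnlg* at 0 in 3 of the 4 groups, and dendritic cell markers to 1.84 against 3.03 CPM and to 2.86 against 4.02 CPM. Summed medians stayed at or below 2.14 CPM for T and NK cells, 1.12 CPM for B cells, 2.08 CPM for tumour epithelial cells and 0.689 CPM for mast cells. Erythroid markers had summed medians of 7.61 against 6.12 CPM at 24h and 1.64 against 0.598 CPM at 72h, with 11.3 CPM in Kaede-red 72h replicate 3. Over both times *Csf3r* (log2 fold change 0.67), *Ccr7* of the dendritic cell list (4.5) and *Cd4* of the T and NK cell list (2.46) were called higher in Kaede-red cells, like the receptors. *Ccr7* was at 0 in Kaede-green cells at 24h. In Kaede-green cells all T and NK cell markers together had medians of 2.14 CPM at 24h and 0.972 CPM at 72h. The values of *Ccr7* and *Cd4* were thus set against Kaede-green levels near the limit of detection, which limits what their size can show. *Mmp8*, *Cd209a*, *Cd79b*, *Hba-a1* and *Hba-a2* were tested and not called. The part of these cells in the values of the 9 genes was not tested.

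The genes whose pattern over the 16 libraries was most like each of the 9 were listed from those with a mean log2 CPM of at least 4, by Pearson's r of log2 CPM, as a description; the points share colour, time and depth. *Tgfbi* was most like *Psap* (r = 0.975), *Themis2* (r = 0.968) and *Gnai2* (r = 0.956), and *Tgfb1* like *Pik3cd* (r = 0.948), *Uba1* (r = 0.943) and *Ly6e* (r = 0.938). *Tgfbr1* followed *Plekha2* (r = 0.939), *Arrb2* and *Cxcl16* (r = 0.883 for both), and *Thbs1* followed *Vcan* (r = 0.903), *Cebpb* (r = 0.891) and *Msrb1* (r = 0.882). These 4 genes had the closest partners of the 9. *Tgfbr2* was nearest to *Pira7* (r = 0.871), *Rab8b* (r = 0.868) and *Dnaja1* (r = 0.866), *Smad3* to *Rassf2* (r = 0.852), *Khdrbs1* (r = 0.83) and *Kmt2d* (r = 0.795), and *Smad7* to *Dcp2* (r = 0.794), *Whsc1* (r = 0.747) and *Gm5643* (r = 0.743). *Tgfb3* reached 0.705 with *Sh3pxd2b*, 0.678 with *Por* and 0.676 with *Rpn2*, and *Smad2* 0.693 with *Sh3glb1*, 0.649 with *Hnrnpab* and 0.628 with *Ier5*. Ranked by Spearman's rho, 5 of these 27 genes stayed among the 3 nearest.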

How the data were processed

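RNA of sorted CD11b+ cells was sequenced in 16 libraries, 4 per group, prepared with a stranded total RNA kit. According to their methods, the authors trimmed reads with Trim Galore, checked them with FastQC, aligned them to mm10 with HISAT2 and deposited the raw counts per gene from featureCounts (versions, annotation and strand setting are not given in the sources used here). Differential expression was tested here on all genes kept by filterByExpr (minimum count 10, 9642 of 24421 genes, all 9 TGF-beta genes among them) with edgeR 4.0.16 in R 4.3.3: TMM factors, 1 mean per group in a single fit of 16 libraries, the quasi-likelihood test and Benjamini-Hochberg adjustment over all genes tested, with calls at an adjusted p under 0.05. Log2 CPM used a prior count of 2, and exon lengths came from GENCODE M21 (GRCm38). DESeq2 1.42.0, other scalings and filters, a replicate block, thinning of Kaede-red libraries, the *Rn45s* share as a covariate and leaving out each library were the alternatives; those for the pathway genes outside the 9 were chosen after seeing the data. No library was a copy of another (chi-square per gene between 3.21 and 95.6 over the 24 pairs of replicates). In Kaede-red cells at 24h, replicates 1 and 2 (3.21) and replicates 3 and 4 (5.66) were close. Pairs across them had values from 33.5 to 78.4, so this group of 4 was split over all genes, and the cause was not tested. The genes named are the 9 genes, the called genes of the pathway lists (at 72h between the colours, the highest and the lowest), the 3 genes nearest to each of the 9, and markers of the sorted cells and 10 other cell types. The 9 genes and the lists were chosen with earlier results of these data known.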

Additional observations from a re-analysis of the deposited data

Results flagged for a closer look

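In 44 groups of 4 values (the CPM of the 9 genes, the *Rn45s* share and the counts outside *Rn45s*, by group), 3 held a library far from the other 3 by Dixon's criterion, which chance gives in about 1 of 20 groups. *Tgfb3* was highest in Kaede-green 24h replicate 4, at 2.45 CPM from 6 counts, and *Tgfbr1* was lowest in Kaede-green 72h replicate 4, at 11.9 CPM. *Smad2* was highest in Kaede-red 72h replicate 3, at 8.0 CPM, in the library with the fewest counts of its group. The causes were not tested.

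For *Fstl1*, a gene of the pathway lists outside the 9, the difference between the colours changed by -1.87 on the log2 scale from 24h to 72h (SE 0.45, adjusted p = 0.0483 by edgeR's quasi-likelihood test). The call was lost in 12 of the 16 fits without 1 library, and in the thinned and covariate fits.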

How the results depend on the processing

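Over 532 log2 fold changes of the 9 genes under 11 alternatives, 444 kept direction and side of the threshold, 19 lost a call, 38 gained one and 31 changed sign. Over 864 values without 1 library these numbers were 786, 22, 19 and 37. *Tgfbr1* at 24h kept its call in every fit.

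With the *Rn45s* share as a covariate, the number of the 9 genes called fell to 0 over both times (1.62% of all genes) and 0 at 72h (1.06%). Between the times in Kaede-red cells it fell to 1 (1.14% of all genes). Scaling by counts outside *Rn45s* called 6 at 24h (48.2% of all genes) and 7 at 72h (37.6%). For the interaction, 0 became 3 with DESeq2 (5.18% of all genes), 3 with no filter (1.03%), 2 with at least 10 counts in every library (5.22%), 2 with a robust dispersion (0.861%) and from 0 to 3 without 1 library (0.0198% to 1.55%). Without 1 library the numbers otherwise ranged from 5 to 7 over both times (15.9% to 20.5% of all genes) and 2 to 3 at 24h (5.02% to 7.81%). At 72h they ranged from 2 to 4 (11.8% to 19.4%). Between the times they were 2 to 4 in Kaede-red (2.91% to 11.3%) and 0 in Kaede-green cells (0% to 0.0198%). The causes were not tested.

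A replicate block gave 5 calls over both times, without *Smad7* (18.5% of all genes), 3 at 24h, with *Tgfbr2* (7.31%), 3 at 72h (16.2%) and 3 for the interaction (1.70%), moved *Tgfb3* at 72h to 0.27 and *Smad3* in the interaction to -0.0068. Whether equal numbers mark a pair is not given: same-numbered libraries correlated between -0.0183 and 0.153 in their deviations from the group means, and 2 of 8 correlated best with their own number.

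The other changes of sign were these, in log2 units. With counts outside *Rn45s*: *Smad7* 0.068, *Thbs1* 0.22 and *Junb* 0.32 over both times, *Tgfb1* 0.61 and *Junb* 0.12 at 24h, *Tgfb3* 0.50 and *Smad7* 0.14 at 72h, *Smad2* 0.090 and *Smad7* 0.059 with time in Kaede-green and *Tgfbr1* -0.067 in Kaede-red cells, and *Smad3* -0.16 in the interaction. With the covariate: *Tgfb1* -0.21 over both times, *Tgfbi* -0.28 at 24h, *Tgfb3* 0.94 and *Thbs1* -0.24 at 72h, *Smad7* 0.016 with time in Kaede-green and *Tgfb3* 0.12 in Kaede-red cells. *Thbs1* at 72h, near 0, turned to -0.032 with RLE factors, -0.0083 with upper quartile factors, -0.027 with DESeq2, -0.028 in a fit of the groups compared and -0.052 with thinned Kaede-red libraries. *Tgfbr1* with time in Kaede-red cells, also near 0, turned to -0.039 with RLE factors, -0.064 with upper quartile factors, -0.034 with DESeq2, -0.047 with at least 10 counts in every library and -0.082 with thinning. *Tgfb3* at 72h turned to 0.033 with no filter and 0.13 with thinning, and thinning moved *Smad2* at 72h to -0.13 and *Smad3* in the interaction to -0.076. The causes were not tested.

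Without 1 library, values that changed sign in some fit ranged from -0.091 to 0.081 for *Tgfbr1* with time in Kaede-red cells, from -0.45 to 0.024 for *Tgfb1* at 24h, and at 72h from -0.041 to 0.070 for *Thbs1*, from -0.54 to 0.81 for *Tgfb3* and from -0.073 to 0.29 for *Smad2*. With time in Kaede-green cells they ranged from -0.36 to 0.15 for *Smad7*, from -0.19 to 0.13 for *Smad2* and from -0.54 to 0.021 for *Tgfb1*, and in the interaction from -0.42 to 0.34 for *Smad3*, from -0.60 to 0.31 for *Tgfbr2* and from -0.31 to 0.024 for *Smad2*. None of these was a call. Of 335 values of called pathway genes outside the 9 under the alternatives, 285 kept their call, 48 lost it and 2 changed sign, and of 528 without 1 library 462 kept it and 66 lost it. Kaede-green libraries held few counts of *Tgfb3*, *Smad3*, *Smad7* and *Tgfbr2*, which limits what their values can show.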
